A study of Mus musculus with 2 samples.

Results

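A set of 9 transcription factors, *Spib*, *Sox8*, *Hnf4a*, *Hnf4g*, *Grhl3*, *Foxj1*, *Foxi1*, *Spdef* and *Foxa2*, were followed through thymic epithelial cells (TECs) measured by droplet single-cell RNA sequencing. They are 9 of 32285 listed genes and were chosen by symbol as factors that drive cell lineages outside the thymus. TECs (EPCAM positive, CD45 and TER119 negative) were sorted from thymi of female C57BL/6 mice 15 days after a sublethal dose of whole-body irradiation and from age-matched mice that were not irradiated, and the cells of several mice were pooled into 1 library per condition. The labels name no deleted or added gene in either group. The labels give an age of 9 weeks for both groups, while the protocol text attached to them names mice of 4 weeks.

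The labels and the file names disagree on which library is which. The library whose files carry the name Contl is labelled as irradiated, and the library whose files carry the name Rad is labelled as control. Cells with more than 2000 and fewer than 7500 detected genes and under 15% mitochondrial UMIs (unique molecular identifiers, the count of captured RNA molecules) numbered 3233 of 4937 barcodes in the Contl library and 5070 of 7167 in the Rad library. The study's own text gives these cell numbers to the control and the irradiated TECs, respectively. Both are therefore called by their file names here, and every direction between them would turn round if the labels were right. Each condition was 1 library, so no test between conditions was possible, and every interval below covers counting error only. The kept cells held a median of 13412 UMIs in the Contl library and 13004 in the Rad library, so 1 UMI in a median cell corresponds to 0.746 and 0.769 UMIs per 10000, and 5 barcodes were shared by kept cells of both libraries.

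Medullary TECs present self antigens to developing T cells, and the autoimmune regulator Aire turns on many tissue-restricted genes in them. Some medullary TECs go further and take on the gene programs of skin, gut, airway, tuft or endocrine cells; these are called mimetic cells, and each kind carries the transcription factor that drives the same lineage outside the thymus. Spib and Sox8 act in microfold (M) cells of gut epithelium, Hnf4a and Hnf4g in enterocytes and hepatocytes, Grhl3 in the skin barrier, Foxj1 in motile cilia, Foxi1 in ionocytes, Spdef in goblet and other secretory cells, and Foxa2 in foregut-derived endoderm, including neuroendocrine cells.

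All 9 genes were detected in both libraries, but at very different numbers of cells. *Spib* had 4522 UMIs in 1416 cells of the Contl library and 5981 UMIs in 2294 cells of the Rad library, which is 43.8% and 45.2% of the kept cells. The other genes were rare. *Hnf4g* had 393 UMIs in 318 Contl cells and 374 UMIs in 291 Rad cells, *Grhl3* had 288 UMIs in 213 Contl cells and 380 UMIs in 321 Rad cells, and *Foxi1*, the rarest, had 132 UMIs in 21 Contl cells and 193 in 31 Rad cells. Cells with 2 or more UMIs of a member other than *Spib* numbered 265 in the Contl library and 278 in the Rad library. Because a 3′ UMI count also depends on how well a transcript is captured, counts set side by side for different genes describe detection and not relative expression.

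The genes also differed in how their UMIs were spread over cells. *Foxi1* was the most concentrated: cells with 2 or more *Foxi1* UMIs held 96.2% of its UMIs in the Contl library and 94.3% in the Rad library, and the 10 cells with most held 86.4% and 71.5%. *Hnf4a* resembled it, with 71.0% and 50.5% of its UMIs in 10 cells. *Hnf4g* and *Grhl3* were at the other end, with 258 of 318 and 239 of 291 *Hnf4g* cells holding a single UMI, and with 161 of 213 and 269 of 321 *Grhl3* cells doing so. No cell held more than 5 *Hnf4g* UMIs, whereas single cells reached 50 for *Spib*, 28 for *Foxi1*, 25 for *Foxj1*, 21 for *Hnf4a* and 20 for *Sox8*.

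The 9 genes lie on 6 chromosomes of the GRCm38 build (GENCODE M21 annotation, the coordinate system of mm10). They span 7:44525993-44532071 (*Spib*), 17:25565892-25570686 (*Sox8*), 2:163506808-163572910 (*Hnf4a*), 3:3508030-3658052 (*Hnf4g*), 4:135541888-135573630 (*Grhl3*), 11:116330704-116335399 (*Foxj1*), 11:34204338-34208089 (*Foxi1*), 17:27714352-27728955 (*Spdef*) and 2:148042877-148046969 (*Foxa2*). *Hnf4a* and *Hnf4g* are on the plus strand and the other 7 on the minus strand. *Sox8* and *Hnf4a* each overlap a gene on the opposite strand, *2810468N07Rik* and *Hnf4aos*.

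Between the libraries, 0 of the 9 genes were higher in the Rad library by 1.5-fold or more and 3 of 9, *Hnf4g*, *Spdef* and *Foxa2*, were lower. Among the 20969 genes with at least 20 UMIs, 3.67% were higher and 13.4% were lower by that fold. *Foxa2* was at 0.0273 UMIs per 10000 in the Contl library (95% Poisson interval 0.0230 to 0.0322) and 0.0155 in the Rad library (0.0128 to 0.0186), a log2 ratio of Rad over Contl of -0.82 (exact 95% interval -1.19 to -0.46). *Spdef* was at 0.0240 and 0.0146, a log2 ratio of -0.72 (-1.11 to -0.34). *Hnf4g* was at 0.0762 and 0.0495, a log2 ratio of -0.62 (-0.83 to -0.41). These 3 differences exceeded counting error, but no replicate library was analysed here to show how far 2 pools of the same condition would differ.

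The remaining genes differed by less than 1.5-fold. *Hnf4a* was at 0.0207 and 0.0142 UMIs per 10000, a log2 ratio of -0.55 (-0.95 to -0.15), and *Foxj1* at 0.0572 and 0.0433, a ratio of -0.40 (-0.63 to -0.17). *Sox8* was at 0.0686 and 0.0551 (-0.32, interval -0.53 to -0.11), and *Spib* at 0.877 and 0.792 (-0.15, interval -0.20 to -0.09). For *Grhl3*, at 0.0558 and 0.0503 (-0.15, interval -0.38 to 0.08), and *Foxi1*, at 0.0256 and 0.0255 (interval -0.33 to 0.33), the interval included 0. The median log2 ratio was -0.40 over the 9 genes and -0.07 over all genes tested, of which 12920 of 20969 lay below 0. At a matched depth of 4000 UMIs per cell, the interval of the log2 ratio of shares included 0 for all 9 genes; for *Foxa2* the ratio was -0.70 (-1.52 to 0.12), from 28 Contl and 27 Rad cells. A difference in the share of positive cells was therefore not detectable at that depth. At full depth the interval lay below 0 for 4 genes, with log2 ratios of shares of -0.78 (-1.01 to -0.54) for *Hnf4g*, -0.86 (-1.36 to -0.36) for *Spdef*, -0.61 (-1.08 to -0.14) for *Foxa2* and -0.52 (-0.82 to -0.23) for *Foxj1*.

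**Figure D1:**
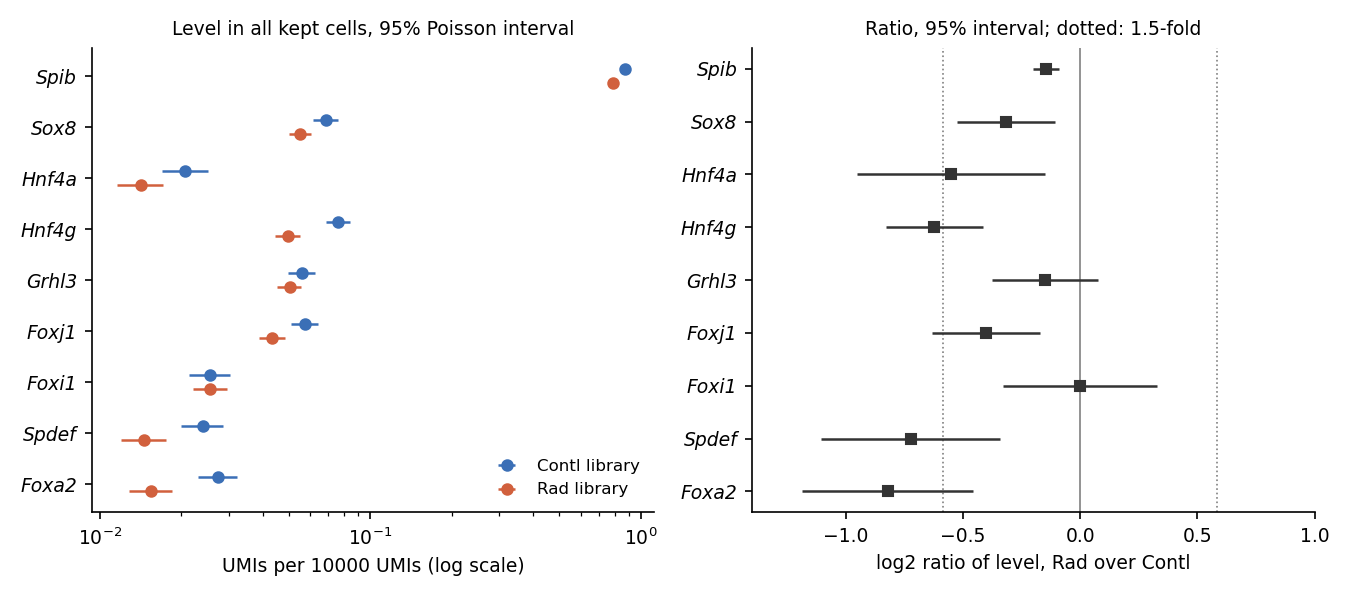
Left, level of each gene in UMIs per 10000 UMIs (log scale) in all kept cells of the Contl and Rad libraries with 95% Poisson intervals; right, the log2 ratio of Rad over Contl with its exact 95% interval and dotted lines at 1.5-fold. *Hnf4g*, *Spdef* and *Foxa2* lie beyond the lower dotted line, and the intervals of *Grhl3* and *Foxi1* cross 0.

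To place the positive cells, all kept cells were clustered after integration of the libraries, which gave 14 clusters, C0 to C13. Of the 9 genes, only *Foxi1* was among the 2000 genes used to align the libraries. Some marker lists contain a member, so cluster names were checked on the other markers alone. C0 (1309 cells, led by *S100a9* and *S100a8*) had 6 of 7 Aire mTEC markers more than 2-fold above the other cells. C6 held all 7 markers of transit-amplifying, cycling mTECs, C7 all 8 cortical markers, C9 (300 cells) all 8 tuft markers and C10 (189 cells) all 5 keratinized markers. C12 (42 cells) had 4 of 4 neuroendocrine markers and C13 (19 cells) 4 of 4 ciliated markers, in both cases without the member in the list. C3 (942 cells) had 5 of 5 enterocyte and 4 of 4 microfold markers together and is left unnamed, as is C4 (793 cells), which had 2 of 7 Aire mTEC markers. The clusters where *Hnf4g*, *Spdef* and *Foxa2* were high took different shares of the libraries: C3 held 13.3% of the Contl cells and 10.1% of the Rad cells, C9 4.73% and 2.90%, C12 0.742% and 0.355%, and C13 0.217% and 0.237%. The part of these shares in the differences between the libraries was not tested.

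**Figure D2:**
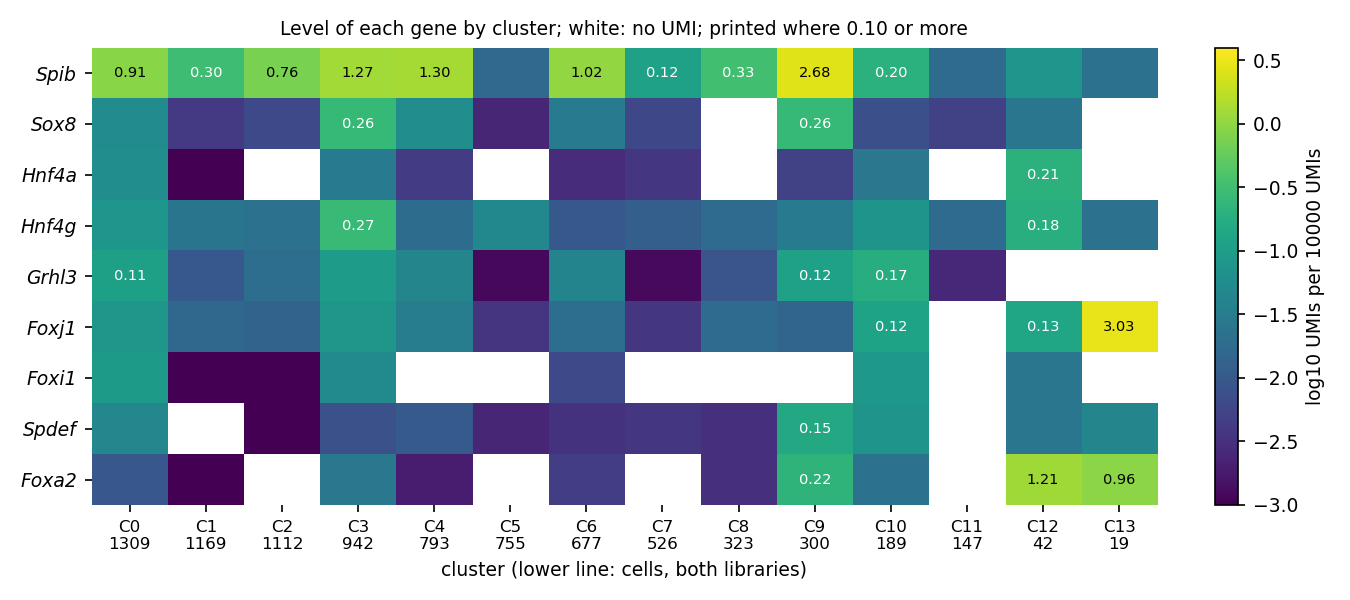
Level of each gene in UMIs per 10000 UMIs (colour, log10 scale) in the 14 clusters, both libraries together, with the number of cells under each cluster; white squares hold no UMI. *Spib* is spread over most clusters and highest in C9 (2.68), *Foxj1* is highest in C13 (3.03), and *Foxa2* is high in both C12 (1.21) and C13 (0.96).

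**Figure D3:**
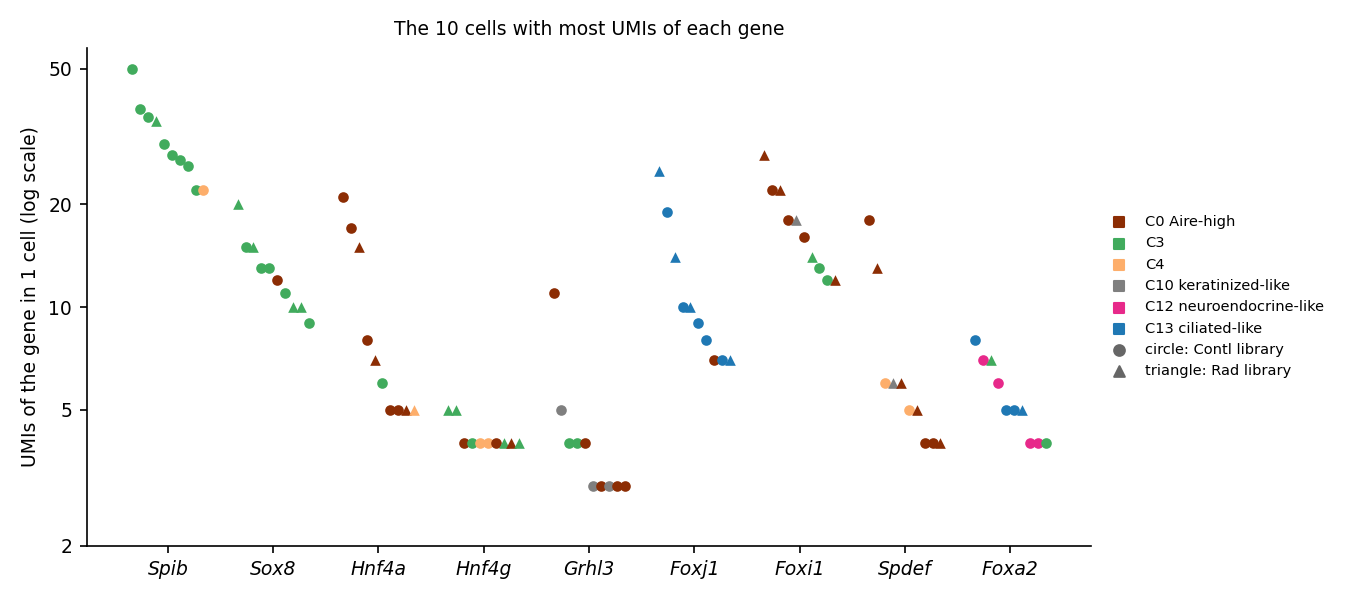
UMIs of each gene (vertical axis, log scale) in the 10 cells with most, circles for the Contl library and triangles for the Rad library, coloured by cluster. The highest *Spib* and *Sox8* cells lie mostly in cluster C3, the highest *Foxj1* cells in C13, the highest *Hnf4a* and *Spdef* cells in C0, and *Hnf4g* does not exceed 5 UMIs.

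Free RNA in the droplets can place a UMI in a cell that does not express the gene, so the shares were also taken after thinning every cell to 4000 UMIs and set beside the cells with cortical TEC markers (196 and 477 cells of clusters C7 and C11, median 17181 and 14976 UMIs), which are not expected to use these factors. After thinning, *Spib* was found in 20.6% of Contl cells and 21.5% of Rad cells, against 3.57% and 3.35% of the cortical TEC-like cells. For the other 8 genes the thinned share was 0.40% to 2.51% in the Contl library and 0.41% to 2.07% in the Rad library. In the cortical TEC-like cells it was 0.51% or lower. *Foxi1*, *Spdef*, *Foxa2*, *Hnf4a* and *Foxj1* were in 0 of the 196 and 0 of the 477 thinned cells, where a count of 0, taken to allow up to 3 counts, leaves room for shares of up to 1.53% and 0.629%. *Hnf4g* was also present outside the mimetic clusters: in the *Pdpn* TEC-like cluster C5 its thinned share was 1.54% (6 of 389 cells) and 2.20% (8 of 364), beside 2.51% and 2.07% in the whole libraries.

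*Spib* was spread over several clusters. By level it was highest in the tuft-like cluster C9, at 2.90 UMIs per 10000 in the Contl library and 2.38 in the Rad library, and 277 of the 300 cells of C9 had a UMI. By number, C0, C4 and C6 held most of the cells with 2 or more *Spib* UMIs, with 538, 499 and 418 of 2301, against 245 in C3, 241 in C2 and 225 in C9. C2 (1112 cells) had 5 of 8 markers of *Ccl21a*-expressing mTECs more than 2-fold up, and 533 of its cells had a *Spib* UMI. By single cells, 9 of the 10 with most *Spib*, from 22 to 50 UMIs, were in C3. Over all cells with 2 or more *Spib* UMIs, set against cells with none, the tuft list (18 genes) was higher by a log2 ratio of 2.98 and the cell cycle list by 1.72, whereas the microfold list (13 genes without *Spib*) was higher by 0.52.

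Within clusters, cells with 1 or more UMIs of a gene were set against cells of the same cluster with none. In C3, cells with a *Spib* UMI had 83.6 UMIs per 10000 of the microfold list (without *Spib* and *Sox8*), against 37.0 in C3 cells with none, a log2 ratio of 1.18. Elsewhere the ratio of the same list was smaller, at -0.10 (-0.24 to 0.05) in C9, 0.05 (0.003 to 0.09) in C4, 0.18 (0.15 to 0.21) in C0 and 0.40 (0.33 to 0.47) in C7, and it was 0.61 (0.43 to 0.78) in C11, where 5 cells had a *Spib* UMI. For the tuft list the ratio within a cluster was 0.30 in C9, 0.22 in C4 and -0.42 in C0. It was 1.08 in C3 and 1.83 in C10, where 32 cells had a *Spib* UMI. For the cell cycle list it was -0.02 in C6, -0.28 in C4, 0.03 in C0 and 0.02 in C3, but 1.90 in C10. Over all clusters together, the 10 genes most raised with *Spib* were led by *Ptpn18* (log2 ratio 2.67) and *Wnt10b*, a Wnt ligand (2.52). They included *Pclaf*, *Uhrf1* and *Melk*, which are used in DNA replication and cell division (2.28, 2.17 and 2.16).

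*Sox8* was found in fewer cells. Its level was 0.238 UMIs per 10000 in C3 of the Contl library and 0.278 in C3 of the Rad library, and 0.252 and 0.264 in C9. C3 held 58 of the 123 cells with 2 or more *Sox8* UMIs and C9 held 21. Of the 10 highest cells, 9 were again in C3, with 9 to 20 UMIs, and 1 was in C0. The genes most raised in cells with 2 or more *Sox8* UMIs were led by *Ccl6*, a chemokine (log2 ratio 6.70), *Gp2*, the M cell uptake receptor for bacteria (5.40), *Ccl9* (5.20) and *Ccl20*, the chemokine that draws cells expressing CCR6 (5.09).

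Each of these 4 genes was raised in both libraries. *Gp2* had a UMI in 35.6% of the Contl and 35.9% of the Rad cells with 2 or more *Sox8* UMIs, against 3.31% of cells with none, and *Ccl20* in 44.1% and 53.1% against 7.73%. *Cr2*, complement receptor 2, followed at 4.66 and *Pglyrp1*, a peptidoglycan recognition protein, at 4.36. *2810468N07Rik*, which overlaps *Sox8* on the opposite strand, was also among the 10, at 4.27. Over the whole microfold list 11 of 13 genes were more than 2-fold higher, the summed log2 ratio being 2.35. In the same cells the tuft list was at 2.13, with 17 of 18 genes more than 2-fold higher. The enterocyte and hepatocyte list was at 1.69, with 15 of 24. Without the gene with most UMIs of each list, the microfold list was at 2.05 and the tuft list at 2.16. Within C3 the microfold list was at 185 UMIs per 10000 in the 115 cells with 1 or more *Sox8* UMIs. It was at 248 in the 58 with 2 or more and at 38.3 in those with none. Within C9 it was at 15.7 in cells with 1 or more *Sox8* UMIs and 14.3 in cells with none, and the log2 ratio at 1 or more UMIs was 2.28 in C3 and 0.14 in C9. As with *Spib*, the microfold genes were higher with *Sox8* in C3 and hardly in the tuft-like cells.

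Both paralogous nuclear receptors were split between clusters. *Hnf4g* was highest in C3, at 0.282 UMIs per 10000 in the Contl library and 0.255 in the Rad library, and 70 of the 112 cells with 2 or more UMIs were there. *Hnf4a* was instead most frequent in the Aire mTEC-like C0, with 23 of its 37 cells with 2 or more UMIs and the 5 highest cells (7 to 21 UMIs), and 9 were in C3. Its level in C0 was 0.0724 UMIs per 10000 in the Contl library and 0.0476 in the Rad library, a log2 ratio of -0.60 (-1.11 to -0.10). That interval takes UMIs as independent, but single cells held 21 and 17 of the 74 Contl UMIs and 15 of the 63 Rad UMIs. Cells with 2 or more *Hnf4a* UMIs in C0 numbered 9 of 521 in the Contl library and 14 of 788 in the Rad library. In the 42 cells of C12, *Hnf4a* and *Hnf4g* reached 0.21 and 0.18, from 6 and 5 cells with a UMI.

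In cells with 2 or more *Hnf4g* UMIs, 20 of the 24 genes of the enterocyte and hepatocyte list were more than 2-fold above cells with none, and the list as a whole had a log2 ratio of 3.03 (3.05 in the Contl library, 2.94 in the Rad library). *Guca2b*, which encodes uroguanylin, was at 5.53, *Apoc3* and *Apoa4*, apolipoproteins, at 4.68 and 4.21, *Lgals4*, an intestinal galectin, at 4.48 and *Muc13*, a membrane mucin, at 4.24. The microfold list was raised as well, by 1.42. Within C3, the enterocyte list was at 152 UMIs per 10000 in cells with 1 or more *Hnf4g* UMIs and 56.6 in cells with none, a log2 ratio of 1.43, and within C0 at 29.6 and 23.3, a ratio of 0.35. With 2 or more *Hnf4g* UMIs it was at 139 in C3 and 39.9 in C0. The level of *Hnf4g* itself differed less between the libraries in these clusters than over all cells, with a log2 ratio of Rad over Contl of -0.15 (-0.45 to 0.15) in C3 and 0.02 (-0.41 to 0.46) in C0. In other clusters the ratio was lower: -1.71 (-2.99 to -0.52) in C2, from 18 and 10 UMIs, and -1.03 (-2.14 to -0.01) in C5, from 28 and 12. It was -0.56 in C1 and -0.48 in C4, where the intervals included 0.

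With *Hnf4a* the same list had a lower ratio of 1.63, with 14 of 24 genes more than 2-fold up (1.06 in the Contl library, 2.002 in the Rad library), and *Lypd8* held 40% of its UMIs. *Lgals4* was at 4.43 and *Muc13* at 3.75, the latter in 14.3% of the 14 Contl cells and 39.1% of the 23 Rad cells. Several of the genes most raised with *Hnf4a* rested on 1 cell, such as *Unc93a2* with 57% of its UMIs and *Lyz1* with 67%. In C0 the enterocyte list was at 30.6 UMIs per 10000 in the 37 cells with 1 or more *Hnf4a* UMIs and 23.8 without (0.36), whereas in C3 it was at 325 in 23 cells and 80.3 without (2.02). In the cells with 2 or more UMIs it was at 26.2 in C0 (23 cells) and 154 in C3 (9 cells). Of the cells with 2 or more UMIs of either receptor, 0 had 2 or more of both, where the product of the shares gives 0.50. With 1 or more UMIs, 16 cells had both, where that product gives 6.3.

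*Grhl3*, a grainyhead-like factor of barrier epithelia, was spread widely and at low counts. It was highest in the keratinized-like C10, at 0.145 UMIs per 10000 in the Contl library and 0.203 in the Rad library, with 0.113 and 0.121 in C9 and 0.114 and 0.107 in C0. C10 held 10 of the 104 cells with 2 or more UMIs, against 45 in C0 and 23 in C3. The keratinized list was higher in *Grhl3* cells by a log2 ratio of 1.26, 0.73 in the Contl library and 1.72 in the Rad library, with 14 of 20 genes more than 2-fold up. Over both libraries together the enterocyte and hepatocyte list was higher still, by 1.46, but not in the Rad library (1.43 in Contl, 1.32 in Rad). The tuft list was higher by 0.98 (1.16 and 0.31). Among keratinized genes *Spink5*, a protease inhibitor of the skin, was at 2.75, *Ivl* (involucrin) at 2.72 and *Klk7*, a desquamation protease, at 2.33, with UMIs in 21.2%, 5.77% and 9.62% of the cells. Other genes of the list did not follow *Grhl3*. *Krt10* was at 0.67 and *Krtdap* at 0.36, found in 24.0% and 14.4% of the cells against 27.7% and 15.7% of cells without *Grhl3*. *Cdsn*, with 1 UMI, was at -1.39.

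Among genes with a UMI in 25% or more of the cells with 2 or more *Grhl3* UMIs, the 10 most raised lay between log2 ratios of 1.92 and 2.13, and the first of them, *Ifitm1*, was at -0.38 in the Contl library and 3.13 in the Rad library, with 49% of its UMIs in 1 cell. Within C0 the keratinized list was at 9.92 UMIs per 10000 with 1 or more *Grhl3* UMIs and 9.73 without (12.99 with 2 or more), and within C10 at 116 and 94.6, a log2 ratio of 0.30.

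*Foxj1*, the master regulator of motile cilia, marked the smallest cluster. In C13, 18 of 19 cells had a UMI and the level was 3.11 per 10000 in the 7 Contl cells and 2.97 in the 12 Rad cells, a log2 ratio of -0.06 (-0.57 to 0.45). Outside C13 it was at 0.115 and 0.156 in C12, 0.0873 and 0.162 in C10 and 0.0929 and 0.0726 in C0. Although C13 had 7 of the 3233 Contl cells and 12 of the 5070 Rad cells, it held 19.7% and 23.9% of the *Foxj1* UMIs. The other UMIs were thinly spread, with 32 cells of 2 or more UMIs in C0 and 22 in C3.

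The ciliated list followed *Foxj1* more steeply than any other list followed its member: all 19 other genes were more than 2-fold higher in cells with 2 or more UMIs, and the summed log2 ratio was 4.45 (3.87 in the Contl library, 4.88 in the Rad library). *Deup1*, which builds the deuterosomes that multiply centrioles, was at 7.42, *Meig1* at 7.27, *Ccno*, a cyclin of multiciliated cell differentiation, at 5.68 and *Rsph1*, a radial spoke protein, at 5.52. The list was concentrated in C13: it was at 71.9 UMIs per 10000 in the 18 *Foxj1* cells of C13, and at 2.24 and 2.29 in the *Foxj1* cells of C0 and C3, against 1.63 and 1.44 in the cells of C0 and C3 without *Foxj1*. In C10 it was at 5.39 with 1 or more *Foxj1* UMIs, 12.99 in the 5 cells with 2 or more and 1.28 without. With 2 or more UMIs it was at 2.97 in C0 and 3.59 in C3.

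*Foxa2*, a pioneer factor of endoderm, was found mainly in 3 clusters. C12, C13 and C9 held 34, 38 and 43 of its UMIs in cells with 2 or more, in 10, 10 and 18 cells of 53. C3 held 24 in 8 cells and C0 held 12 in 5. By library *Foxa2* was at 1.34 and 0.939 UMIs per 10000 in C12, 1.23 and 0.762 in C13, and 0.226 and 0.207 in C9. It was at 0.0278 and 0.0281 in C3 and at 0.00783 and 0.0106 in C0. The log2 ratio of Rad over Contl was -0.52 (-1.60 to 0.46) in C12, -0.69 (-1.63 to 0.24) in C13 and -0.13 (-0.78 to 0.51) in C9. Each of these intervals included 0.

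The programs in cells with 1 or more *Foxa2* UMIs followed the cluster. This is built in, because the clusters were formed from expression and named by markers of these programs. Tuft genes were at 185 UMIs per 10000 in the *Foxa2* cells of C9, and at 1.57 and 0.60 in those of C12 and C13. Ciliated genes were at 68.3 in the *Foxa2* cells of C13 and at 3.05 and 8.51 in those of C9 and C12, and neuroendocrine genes were at 69.3 in C12 and at 1.95 and 4.62 in C9 and C13. Within C9 the tuft list differed by a log2 ratio of 0.08 between cells with and without *Foxa2*, and within C12 the neuroendocrine list was lower with *Foxa2*, at 69.3 against 97.9 (-0.50). Over all cells with 2 or more *Foxa2* UMIs the lists stood at 4.53 for ciliated, 3.47 for tuft and 0.69 for neuroendocrine genes. *Foxj1* and *Foxa2* were found together in 24 cells, where the product of the shares gives 7.7, and at 2 or more UMIs in 10 cells, where it gives 0.62.

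*Foxi1*, which directs ionocytes and other acid-transporting cells, was in few cells but at many UMIs each. Of the 36 cells with 2 or more, 22 were in C0 and 11 in C3. Its level was 0.0831 UMIs per 10000 in C0 of the Contl library and 0.0998 in C0 of the Rad library, and 0.0658 and 0.0380 in C3 (log2 ratio -0.79, interval -1.54 to -0.07), and in C10 it was 0 UMIs in 95 Contl cells and 22 UMIs in 94 Rad cells, of which 18 were in 1 cell. The ionocyte list was higher in *Foxi1* cells by a log2 ratio of 2.32, with 12 of 17 genes more than 2-fold up.

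The UMIs of this list were uneven over the 36 cells. A Rad cell of C10 with 18 *Foxi1* UMIs held 144 UMIs of the ionocyte list, a Contl cell of C3 with 12 held 56, and a Rad cell of C3 with 14 held 40, and every other one held 25 or fewer. These list UMIs included 12, 24 and 25 of *Ascl3*, an ionocyte transcription factor that is itself in the list. The 61 *Ascl3* UMIs of these 3 cells were 83.6% of all its UMIs in both libraries. The same cells held 0, 0 and 1 UMIs of *Aire*. The C0 cells differed from these: the ionocyte list was at 1.18 UMIs per 10000 in the C0 cells with 1 or more *Foxi1* UMIs and 2.15 in its other cells, whereas in C3 it was at 8.79 and 1.09, and the 3 cells with most *Foxi1* of C0, at 28, 22 and 22 UMIs, held 16, 38 and 17 *Aire* UMIs. The genes most raised with *Foxi1* included *Klk1b26* (5.14) and *Lypd8* (3.80), which had 88% and 82% of their UMIs in 1 cell, and *Dock2*, in 52.8% of the cells (3.81).

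*Spdef*, a factor of goblet and other secretory cells, was found mainly in C9 and C0. In the tuft-like C9 it was at 0.200 UMIs per 10000 in the Contl library (46 UMIs in 34 of 153 cells) and 0.0861 in the Rad library (15 UMIs in 14 of 147 cells), a log2 ratio of -1.21 (-2.16 to -0.35). In C0 it was at 0.0460 and 0.0476, a ratio of 0.05 (-0.52 to 0.63). The lower *Spdef* level of the Rad library was therefore larger than counting error in C9 and not detectable in C0. Of the cells with 2 or more UMIs, C9 held 11 of 21 in the Contl library and 1 of 18 in the Rad library, and C0 held 5 and 11. Of the cells with 1 or more UMIs, C9 held 34 of 74 in the Contl library and 14 of 64 in the Rad library.

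The gene lists in *Spdef* cells also differed between the libraries. The tuft list was at a log2 ratio of 3.60 in the 21 Contl cells and -0.23 in the 18 Rad cells. These cells had 2 or more *Spdef* UMIs, and 1 of the 18 was in C9. With 1 or more UMIs the tuft list was at 3.28 over both libraries. *Rgs13*, a regulator of G protein signalling, had a UMI in 57.1% of the 21 Contl and 5.56% of the 18 Rad cells, and *Sh2d6*, a tuft marker, in 52.4% and 5.56%. With 2 or more UMIs the secretory list was higher by only 0.28 over both libraries (-0.13 in Contl, 0.64 in Rad), with 10 of 24 genes more than 2-fold up. It was higher by 1.24 without *Fcgbp*, a mucus protein found in 84.2% of cells without *Spdef*. Single genes of it were far higher in a few cells. *Muc5b*, a gel-forming mucin, was at 7.06 and *Agr2*, a disulfide isomerase needed to make mucins, at 3.85, each with UMIs in 5.13% of the 39 cells. Others went the other way, with *Lyz1* at -1.33, *Fcgbp* at -0.84 and *Creb3l1* at -0.26. *Spink4* and *Agr3* had 0 UMIs in the *Spdef* cells. *Wfdc2*, a secreted protease inhibitor of airway epithelium, was raised in both libraries, at 3.94 and 4.50, in 64.1% of the cells against 42.1% of cells without *Spdef*, and 1 cell held 40.3% of its UMIs in *Spdef* cells.

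**Figure D4:**
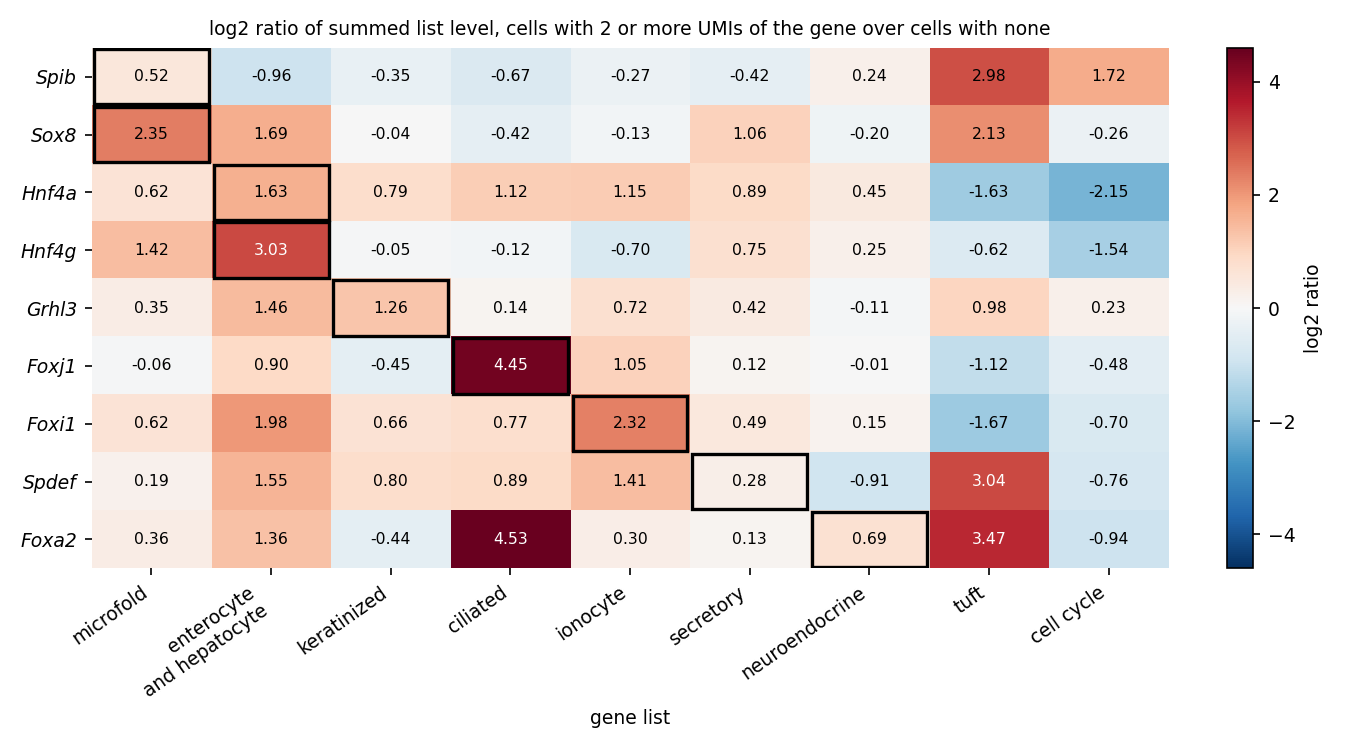
log2 ratio of the summed level of 9 gene lists in cells with 2 or more UMIs of each gene over cells with none, both libraries together; black frames mark the list of the lineage the gene is known for. *Foxj1*, *Hnf4g*, *Sox8*, *Foxi1* and *Hnf4a* have their highest ratio with their own list (4.45, 3.03, 2.35, 2.32 and 1.63). *Spib*, *Spdef*, *Grhl3* and *Foxa2* have theirs elsewhere, with tuft genes at 2.98 and 3.04, enterocyte and hepatocyte genes at 1.46 and ciliated genes at 4.53. This order did not hold in each library. In the Contl library alone, *Foxi1* was higher with enterocyte and hepatocyte genes (2.48) than with its own list (1.66). *Hnf4a* was there higher with ciliated genes (1.33) than with its own list (1.06). In the Rad library alone, *Grhl3* was highest with its own list (1.72) and *Spdef* with enterocyte and hepatocyte genes (2.07).

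The 10 genes with the highest ratio for each member (genes with a UMI in 25% or more of its cells with 2 or more UMIs) differed in how far they were shared by the libraries. They were picked on both libraries together, so high ratios in each library are partly built in and do not show that the genes would recur. For *Foxj1* all 10 lay between 4.17 and 7.23 in the Contl library and between 4.65 and 7.76 in the Rad library, and for *Sox8* between 3.94 and 6.16 and between 4.10 and 7.23. *Hnf4g* and *Foxa2* were as even, at 3.33 to 5.44 and 4.12 to 5.58 for *Hnf4g*, and at 4.11 to 5.87 and 4.61 to 6.68 for *Foxa2*, whose genes were led by *Fam183b* (6.30), *Rsph1* (5.75) and *Bbof1* (5.04), genes of motile cilia, and included *Stxbp5l* (4.96).

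*Spib* was even as well, at 2.27 to 3.10 and 1.95 to 2.44. The remaining members were less so, most of them with few cells of 2 or more UMIs. These numbered 21 Contl and 18 Rad cells for *Spdef*, 16 and 20 for *Foxi1*, 14 and 23 for *Hnf4a* and 52 and 52 for *Grhl3*. The 10 genes of *Spdef* lay between 3.47 and 4.95 in the Contl library but between -0.66 and 4.95 in the Rad library, and those of *Foxi1* between -0.93 and 4.58 and between 2.12 and 6.52. For *Hnf4a* they lay between 1.77 and 4.80 and between 2.53 and 4.69 and for *Grhl3* between -0.56 and 2.22 and between 1.70 and 3.13.

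Lists of other cell types were taken in the same cells. Thymocyte genes were at log2 ratios from -2.12 (*Spib*) to 0.13 (*Foxi1*) and genes of mesenchyme and endothelium from -2.39 (*Spdef*) to -0.39 (*Hnf4a*). The list of B cell, plasmacytoid and myeloid genes lay between 0.20 (*Foxa2*) and 0.91 (*Hnf4a*), and *Lyz2* made up 43% to 67% of its UMIs; without *Lyz2* it lay between -0.41 and 0.17. Cell cycle genes ranged from -2.15 (*Hnf4a*) and -1.54 (*Hnf4g*) to 1.72 (*Spib*), and the list of 38 further regulators from -0.50 (*Hnf4g*) to 0.57 (*Foxa2*). Doublets were not called.

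*Aire* divided the members. It had 22711 UMIs in the Contl library and 34280 in the Rad library, at 4.40 and 4.54 per 10000. Cells with 1 or more UMIs of *Spib* had 6.48 *Aire* UMIs per 10000 in the Contl library, against 2.002 in cells without it, and 6.44 against 2.40 in the Rad library, log2 ratios of 1.69 and 1.42. *Grhl3* cells had 8.07 and 8.33 against 4.06 and 4.20, *Foxj1* cells 7.07 and 7.66, *Foxi1* cells 7.41 and 8.15, and *Hnf4a* cells 7.02 and 8.52. *Foxa2* was the one member whose cells had less *Aire* than cells without it in both libraries, 2.40 against 4.46 and 3.71 against 4.55, log2 ratios of -0.89 and -0.30.

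With 2 or more UMIs the members moved apart. For *Hnf4a* the *Aire* level reached 8.80 and 12.1 UMIs per 10000, with log2 ratios of 1.01 (0.81 to 1.21) and 1.43 (1.29 to 1.56), and for *Foxi1* 8.96 and 8.83. The *Aire* level was also above that of cells without the gene in both libraries for *Spib* (7.09 and 7.03), *Grhl3* (8.80 and 7.28) and *Foxj1* (5.16 and 6.94). *Spib* had the largest ratios of all members, 1.83 and 1.55. For *Sox8* and *Hnf4g* it was close to that of cells without them: *Sox8* cells had 3.95 against 4.30 in the Contl library and 4.72 against 4.38 in the Rad library, and the ratios over both libraries were -0.01 (-0.10 to 0.08) for *Sox8* and 0.04 (-0.05 to 0.14) for *Hnf4g*, the latter from -0.16 in the Contl library and 0.28 in the Rad library. *Spdef* cells differed between the libraries, with ratios of 0.30 (0.11 to 0.49) and 1.43 (1.29 to 1.57), and so did *Foxa2* cells, with -2.09 (-2.50 to -1.71) and 0.06 (-0.14 to 0.25). These intervals take UMIs as independent, while the groups hold 14 to 64 cells each outside *Spib*, and a few cells can carry a group.

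**Figure D5:**
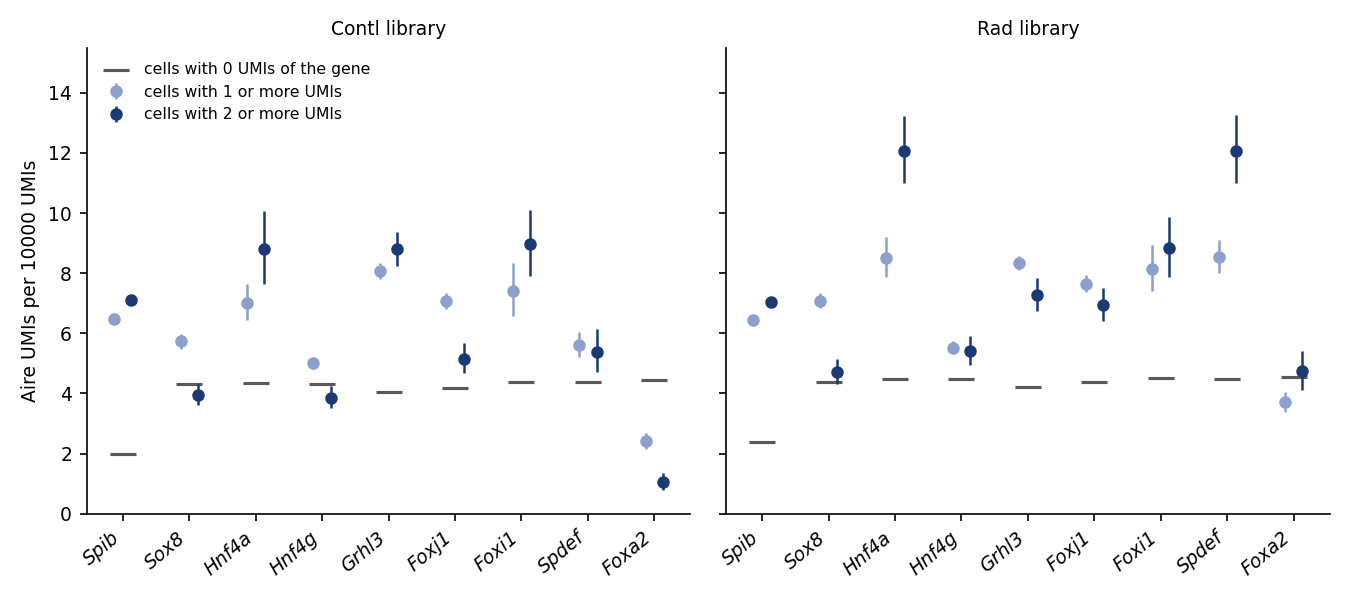
Aire level in UMIs per 10000 UMIs in cells with 1 or more and 2 or more UMIs of each gene, with 95% Poisson intervals, and in cells with none (short grey lines), for the Contl and the Rad library. *Spib*, *Hnf4a*, *Grhl3*, *Foxj1*, *Foxi1* and *Spdef* cells stand above the grey lines in both libraries, with 1 or more and with 2 or more UMIs. *Spdef* and *Foxa2* cells differ between the libraries.

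Positive cells were deeper than negative ones (for *Spib*, a median of 18282 against 11336 UMIs in the Contl library), so the share with *Aire* was also taken after thinning. Only the *Aire* counts were thinned, and cells were still called positive for a member at full depth. Cells with an *Aire* UMI were deep too (a median of 19122 against 11024.5 UMIs in the Contl library). Thinning therefore does not remove the effect of depth on which cells are called positive. Of cells with 2 or more *Hnf4a* UMIs, 43.2% had 5 or more *Aire* UMIs per 4000, against 12.6% of cells without *Hnf4a*. For *Spdef* this was 33.3%, for *Foxi1* 30.6%, for *Grhl3* 29.8% and for *Foxa2* 5.66%. Within C0, with *Aire* at 11.3 UMIs per 10000, cells with 1 or more UMIs of a member other than *Spib* differed from C0 cells without it by log2 ratios from -0.18 (*Foxi1*) to 0.12 (*Foxj1*), and *Spib* cells by 0.31. In C3, *Sox8* and *Hnf4g* cells had less *Aire* than the other cells, 3.12 against 5.09 (-0.70) and 3.63 against 5.38 (-0.56). So did the 23 *Hnf4a* cells of C3, with 3.73 against 4.85 (-0.38), whereas *Spib* cells of C3 had more, 5.44 against 4.33 (0.33). *Grhl3* cells had more in C4, 12.6 against 7.64 (0.72), and in C6, 7.82 against 5.32 (0.56). *Spdef* cells had more in C3, C4 and C6, with ratios of 1.31, 1.11 and 1.12, from 8, 7 and 5 cells.

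Of the 543 cells with 2 or more UMIs of a member other than *Spib*, 491 (90.4%) held 1 such member, 50 held 2 and 2 held 3. Each of these members had 2 or more UMIs in 1.86% or less of the cells of a library. Their shares alone therefore give few shared cells, and the 90.4% does not show that the members avoid each other. Some pairs were together more often than the product of their shares gives, such as *Sox8* and *Hnf4g*, with 2 or more UMIs of both in 10 cells against 1.75. Others were not found together, such as *Sox8* and *Foxj1*, with 0 cells against 1.41. An expected number that small cannot show that these genes avoid each other. At 1 or more UMIs *Sox8* and *Foxj1* shared 26 cells against 19.9. Of the 543, 249 had 2 or more *Spib* UMIs, as did 28.7% of all Contl cells and 27.1% of all Rad cells. At 2 or more UMIs of both, the ratio to the product of the shares differed by member. With *Spib* it was 2.80 for *Sox8*, 2.38 for *Spdef*, 1.83 for *Grhl3* and 1.62 for *Foxa2*. It was 1.09 for *Hnf4g*, 1.01 for *Foxj1*, 1.00 for *Foxi1* and 0.88 for *Hnf4a*. Counted at 1 or more UMIs, *Spib* and *Sox8* were together in 339 cells, where the product of their shares gives 185, a ratio of 1.83 (1.64 to 2.04) that was 1.54 at matched depth. *Spib* met *Hnf4a* and *Hnf4g* about as often as the shares give, in 40 cells against 37.5 and in 283 against 271.

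The pairs far above that product were small. *Spdef* and *Foxa2* shared 24 cells against 2.8 (ratio 8.70, 5.57 to 12.9), 16 in the Contl library and 8 in the Rad library, and both were frequent in C9. *Hnf4a* and *Foxi1* shared 7 cells against 0.53, a ratio of 13.3 (5.33 to 27.3), with 4 and 3 by library. *Sox8* and *Hnf4g* shared 77 cells against 31.0 (2.49, 1.96 to 3.11), 39 and 38 by library, and both were high in C3. *Hnf4g* and *Spdef* did not exceed the product, with 9 cells against 11.0 (0.82, 0.38 to 1.56).

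A list of 38 further regulators of these lineages was compared between the libraries in the same way. All 38 had at least 20 UMIs; 8 were lower in the Rad library by 1.5-fold or more, 1 was higher, and the median log2 ratio was -0.31, beside 13.4% lower, 3.67% higher and a median of -0.07 over all genes tested. *Pou2f3*, the tuft cell factor, was at 0.189 and 0.121 UMIs per 10000, a log2 ratio of -0.64 (-0.77 to -0.51), and *Klf4*, a factor of barrier differentiation, at 1.10 and 0.495 (-1.15, interval -1.21 to -1.09). *Atoh1*, which acts upstream of secretory lineages, had 30 UMIs in 11 Contl cells and 5 in 4 Rad cells. The lower genes also included *Trp73* (-0.60), *Foxa3* (-0.78), *Neurod1* (-1.36) and *Myog* (-0.67). *Nr1h4*, the bile acid receptor, was the higher one, with 35 UMIs in 20 Contl cells and 153 in 28 Rad cells, a log2 ratio of 1.58 (1.04 to 2.15). That interval takes UMIs as independent. For the share of cells with a *Nr1h4* UMI the log2 ratio was -0.16 (-1.04 to 0.74).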

How the data were processed

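Raw UMI counts per gene and barcode were deposited by the authors as filtered matrices for each of 2 libraries (10x Genomics 3′ chemistry, mouse GRCm38). The file header names Cell Ranger 5.0.1 and the submitters' processing notes name version 5.1. The labels name a v2 kit and the study's methods v3 chemistry. Neither ambient RNA removal nor doublet calling is given in the sources used here, and none was applied here.

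Kept cells had more than 2000 and fewer than 7500 detected genes and under 15% mitochondrial UMIs, where genes seen in fewer than 5 barcodes did not count. Levels are summed UMIs per 10000 UMIs of the same cells. Poisson, Clopper-Pearson and conditional binomial 95% intervals were exact and cover counting error only, taking UMIs as independent. Genes with at least 20 UMIs were called when they differed by 1.5-fold. Cells were clustered in Seurat 5.3.0 (R 4.3.3) with 10000 UMIs per cell, 3000 variable genes, 2000 anchor genes, 20 principal components and resolution 0.5; clusters serve as a description. Programs compare cells with 2 or more UMIs of a gene with cells holding none, leaving the gene itself out, and list sizes count the remaining genes; within a cluster, cells with 1 or more UMIs were set against cells with none, and values with 2 or more are named as such. A count of 0 was taken to allow up to 3 counts. The genes named beside each member were the 10 with the highest ratio among genes with 10 or more UMIs found in at least 25% of its cells with 2 or more UMIs. Other genes of a list given as examples, and *Ascl3*, were chosen after their values were seen. Expected numbers of shared cells are the product of the shares within each library. Thinning drew 4000 UMIs per cell without replacement, leaving out 5 shallower Rad cells. Other steps used Python 3.11.15, numpy 2.4.6, scipy 1.17.1, pandas 2.3.3 and matplotlib 3.10.9, and the scripts were tested on simulated data.

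The 9 genes, the lists and the comparisons were chosen with earlier results of these data known. Alternatives were a minimum of 1000 detected genes, 10% mitochondrial UMIs, removal of the 5% deepest cells, 2 UMIs or 1 UMI to call a cell positive, thinning, removal of a list's leading gene, and resolutions 0.3 and 1.0.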

Additional observations from a re-analysis of the deposited data

How the results depend on the processing

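No paired analysis was possible because each condition was 1 library. The log2 ratio of Rad over Contl of the level stayed within its counting interval for all 9 genes in all 45 comparisons with another setting, and only that of *Foxi1*, near 0, changed sign (to 0.071 with 1000 detected genes and 0.034 without the cells with most *Foxi1*). The settings were 1000 detected genes, 10% mitochondrial UMIs, removal of the deepest 5% of cells, removal of the cell with most UMIs of the gene, and UMIs without mitochondrial genes. The ratio of the shares of positive cells stayed within its interval in 50 of 54. With 2 UMIs to call a cell positive it became -0.084 for *Spib*, -0.53 for *Sox8* and -0.65 for *Grhl3*, and after thinning to 4000 UMIs it became -0.27 for *Hnf4g*.

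The *Aire* ratio of positive cells (both libraries) was within its interval in 40 of 54 comparisons. With 2 UMIs it became 1.66 for *Spib*, 1.28 for *Hnf4a*, 0.043 for *Hnf4g*, 0.50 for *Foxj1*, 1.00 for *Foxi1*, 0.94 for *Spdef* and -0.71 for *Foxa2*, and it turned from 0.58 to -0.0081 for *Sox8*; the cause was not tested. With 10% mitochondrial UMIs it became 1.57 for *Spib* and 0.72 for *Hnf4a*, and without the deepest 5% of cells 1.49 for *Spib*, 0.31 for *Hnf4g*, 1.07 for *Grhl3* and 0.84 for *Foxj1*.

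The ratio of each gene's own list left its narrow interval in all 18 comparisons and kept its sign. With 1 UMI in place of 2 it became 0.43 for *Spib*, 1.39 for *Sox8*, 2.63 for *Hnf4a*, 2.78 for *Hnf4g*, 0.74 for *Grhl3*, 2.77 for *Foxj1*, 1.92 for *Foxi1*, 0.53 for *Spdef* and 0.40 for *Foxa2*. Without the list gene with most UMIs it became 0.76 for *Spib*, 2.05 for *Sox8*, 1.13 for *Hnf4a*, 3.35 for *Hnf4g*, 1.04 for *Grhl3*, 4.17 for *Foxj1*, 2.55 for *Foxi1*, 1.24 for *Spdef* and 0.40 for *Foxa2*.

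The highest level in a cluster, in UMIs per 10000, became 0.72 for *Sox8*, 0.46 for *Hnf4g* and 0.17 for *Foxi1* at resolution 1.0, and 0.24 for *Hnf4g*, 0.12 for *Grhl3* and 0.067 for *Foxi1* at resolution 0.3. The ratio of shared cells to the product of shares stayed within its interval in 44 of 72 comparisons, at matched depth or with 2 UMIs. Depth changed the shares of positive cells, from 9.84% to 2.51% for *Hnf4g* and from 0.650% to 0.402% for *Foxi1* in the Contl library after thinning, and *Foxi1* rests on 52 cells, *Hnf4a* on 84 and *Spdef* on 138.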
